A study of Mus musculus with 16 samples.

Results

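In mIMCD3 cells, a mouse line that stems from the collecting duct of the inner medulla, 278 of the 55367 genes counted were silent under isosmotic conditions and held reads after 1 h of hyperosmotic stress. The members were chosen by raw counts alone. A gene was taken when it held 3 or fewer raw counts in both WT DMSO isosmotic libraries and 20 or more in both WT DMSO 1 h libraries. Symbols starting Slc, Trpv, Kcn, Hox, Hist, Aqp or Zfp were left out, which removed 15 genes, and 35594 genes met the isosmotic part of the rule. The 4 DMSO libraries at these times therefore describe the genes, and no test compares them. They do enter the estimate of spread that the tests share, and the rule required both libraries of each pair to meet its limit. The other 12 libraries show what the same genes did elsewhere.

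All cells received DMSO, the solvent, or 10 μM SFN (sulforaphane, an activator of the transcription factor Nrf2) for 5 h, and RNA was then taken under isosmotic conditions or in hyperosmotic medium, for which 600 mOsm is stated at 1 h. WT cells were sampled with either pretreatment at 3 points, namely before the stress (isosmotic) and 1 h and 6 h into it. Nrf2-/- cells, made with lentiviral Cas9 and a guide RNA and kept under drug selection, were sampled with SFN, isosmotic and after 1 h, and Nrf2-/- cells with DMSO were not analysed here. Whether the Nrf2-/- cells were 1 clone is not given in the sources used here. Each of the 8 groups had 2 libraries, described in the study as biological replicates without further detail, and p-values measure the spread between them. Library totals ranged from 34484296 to 50774875 counts.

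The reads of Nfe2l2, the gene that encodes Nrf2, separated the genotypes as labelled. Its counts were 391 and 433 in the isosmotic Nrf2-/- libraries and 389 and 386 in those of 1 h, against 2496 to 5013 in the 12 WT libraries. The epithelial markers Krt8 and others of a 12-gene list summed to 2390 to 5480 CPM (counts relative to the library total after TMM normalization) in every library, with Krt8 the most abundant at 650 to 1110 CPM. Single genes of that list differed between the genotypes, in both directions. In isosmotic SFN libraries Cdh16 held 7516 and 10752 counts in WT cells and 706 and 780 in Nrf2-/- cells. Pax2 held 5182 and 7874 against 968 and 977, while Epcam held 1875 and 2553 against 9295 and 11309. The Nrf2-/- 1 h libraries stood apart in their spread. Their biological coefficient of variation was 0.348, against 0.0393 to 0.128 in the other 7 pairs, and that pair enters the error of every test given here.

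Hyperosmotic stress shrinks cells within minutes, and the transcription factor NFAT5 then drives genes for organic osmolytes and chaperones through the tonicity element TonE. The same stress is known to weaken the ending of transcription, so that RNA polymerase II runs on past the polyadenylation site of active genes and leaves long transcripts downstream of them. Reads from such transcripts are counted to whatever annotated gene they fall on, and without strand information they are counted to genes on either strand. Neither process was measured in these libraries, and the part of either in the counts was not tested.

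Polyadenylation signals of expressed genes next to members are printed for a few of the pairs described here, chosen among those that carry one, to show where the neighbour ends. Each line gives the last exon of an expressed gene around its AATAAA signal (capitals), 5′ to 3′, from GENCODE M21 transcripts on GRCm38, with the member next to it named in the text.
Dusp6 (chr10:99267459-99267486, plus strand): attattAATAAAtaactattttggctat
Ppp1r7 (chr1:93373457-93373484, plus strand): tttgtcAATAAAatgtgatactgtgaga
Srsf6 (chr2:162937093-162937120, plus strand): tatctcAATAAAatgcttaccaagggaa
Slc6a6 (chr6:91759031-91759058, plus strand): cacaacAATAAAcatttcctttttaaaa
Mrps26 (chr2:130568671-130568695, plus strand): taatgtAATAAAagttgtaaacttt
Ubox5 (chr2:130590002-130590027, minus strand): cactgaAATAAAaatatatttggccc
Gm48089 starts 407 bp past the end of Dusp6, Ano7 441 bp past Ppp1r7 and L3mbtl1 6351 bp past Srsf6, all on the strand of the gene before them. Grip2 lies on the other strand and ends 2443 bp from the end of Slc6a6, which points at it. Where the reads of a member fall within or around it was not seen, since the files give 1 count a gene. AATAAA or ATTAAA stood in the last 40 bases of 44 of the 57 expressed genes whose end lay within 10 kb upstream of a member, 77.2%, against 71.8% of 12237 expressed genes. It was found in the ends of neither Exo1 nor Cct7, the neighbours of the 2 members with the highest level after 1 h with SFN.

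The members are a mixed list. By symbol, 198 were named genes, 56 predicted genes (Gm and a number), 21 Riken clones, 2 antisense or opposite-strand genes and 1 a pseudogene. Among those with a known role, chosen here after their values were seen, are the peptide hormones Avp (vasopressin), Oxt (oxytocin), Ghrh, Lep (leptin) and Pyy, the liver genes Tat (tyrosine aminotransferase), Apoa1 (the main apolipoprotein of HDL) and Gldc (glycine cleavage), the adrenal enzyme Cyp17a1, the brown fat uncoupling protein Ucp1, the muscle myosin Myh3, the neuronal transcription factor Neurog2 and the odorant or pheromone receptor genes Olfr15 and Vmn2r83.

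Avp and Oxt show the pattern of the list in a pair of neighbouring genes. Avp held 0 and 0 counts in the isosmotic SFN libraries, 66 and 82 after 1 h and 45 and 17 after 6 h. With DMSO the counts were 0 and 0, then 87 and 74, then 25 and 22, and in Nrf2-/- cells they were 0 and 0, then 35 and 16. In the SFN and Nrf2-/- series, which the rule did not use, both 1 h libraries lay above both isosmotic libraries. Both WT SFN 1 h libraries also lay above both of 6 h, although that difference was not called (adjusted p = 0.131). After 1 h with SFN, Avp was at least 27.7-fold higher than under isosmotic conditions (adjusted p = 0.000269), taking 3 counts per library as the floor for a gene that held 3 or fewer in both libraries or on average. Oxt held 0 and 4 counts under isosmotic SFN conditions, 45 and 54 after 1 h and 13 and 18 after 6 h, at least an 18.5-fold rise after 1 h (adjusted p = 0.00177). The genes point at each other on chromosome 2, with Oxt (130576173 to 130577054, plus strand) 7478 bp past the end of Mrps26 and Avp (130580620 to 130582554, minus strand) 7448 bp past the end of Ubox5. Mrps26 and Ubox5, whose signals are printed above, stood at 61.2 and 18.5 CPM after 1 h with SFN and 49.6 and 17.5 CPM before it, and the reads over the hormone genes cannot be assigned to a strand.

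**Figure D1:**
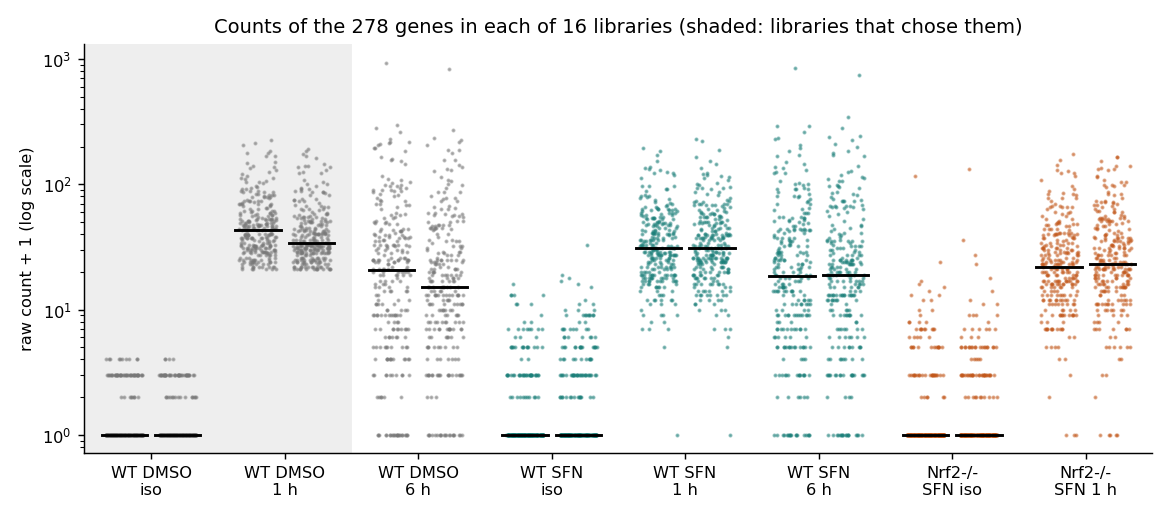
Raw count plus 1 (log scale) of each of the 278 genes in each of 16 libraries, with a black bar at the median of each library and the 4 libraries that chose the genes shaded. The medians are 0 counts in every isosmotic library, 30 and 30 in the WT SFN 1 h libraries, and 21 and 22 in the Nrf2-/- 1 h libraries.

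In the libraries that did not choose them, the genes were again low under isosmotic conditions and held reads after 1 h. The 278 genes together took 8.84 and 9.95 CPM of the raw library total in the isosmotic SFN libraries, 290.9 and 287.3 after 1 h and 272.4 and 279.6 after 6 h. With DMSO the sums were 3.22 and 2.52, 346.3 and 346.1, and 289.1 and 253.6, of which the first 4 follow from the rule. In isosmotic Nrf2-/- cells they were 13.9 and 14.7, and 225.4 and 251.4 after 1 h. The genes thus remained a small share of each library, and no library of 1 h came near an isosmotic one. In the isosmotic SFN libraries, 209 of the 278 genes held 3 or fewer counts in both, as did 209 in the isosmotic Nrf2-/- libraries. After 1 h with SFN, 178 genes held 20 or more counts in both WT libraries and 116 in both Nrf2-/- libraries.

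Of the 278 members, 246 were called higher after 1 h than under isosmotic conditions in WT SFN cells (edgeR, adjusted p under 0.05) and 0 were called lower. That is 88.5% of the members, against 5.94% of the 19509 genes tested that were called higher (3.58% were called lower). All members passed the filter on low counts through their DMSO 1 h counts, which no test compares. Both 1 h libraries lay above both isosmotic libraries for 273 members, and 261 were at least 4-fold higher. The median was 10.5-fold when 239 members at the floor are given their bound. The same shares over all genes tested are not given here, so these counts stand without a background. Without WT SFN isosmotic replicate 2, 153 members were called, and without each of the other 3 libraries compared 179 to 199. The 32 members that were not called include, as examples chosen after their values were seen, Nostrin (12 and 32 counts under isosmotic SFN conditions, 16 and 15 after 1 h) and Espnl, an actin-bundling protein of sensory cells (12 and 16, then 25 and 12).

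The 12 members with the highest level after 1 h with SFN were Gm38100, Fbxo41, Grk1, Neurog2, Osbp2, Grip2, L3mbtl1, Tat, Krt78, Myh3, Vmn2r83 and Atcayos, and all 12 rose. Gm38100, a gene annotated as protein coding 6840 bp past the DNA repair nuclease gene Exo1, held 0 and 8 counts under isosmotic SFN conditions, 192 and 228 after 1 h and 50 and 75 after 6 h. Its level after 1 h was 5.35 ± 0.486 CPM (SD, n = 2), 72.2-fold above isosmotic conditions (log2 fold change in edgeR 5.92, SE 0.63, adjusted p = 4.51e-05), and 36.1-fold without WT SFN isosmotic replicate 1, the library that held 0. The upstream gene Exo1 stood at 71.3 CPM under isosmotic conditions and 77.9 CPM after 1 h, well above the level of Gm38100 itself. Fbxo41, a neuronal F-box gene, held 0 and 0 counts, then 171 and 220, then 27 and 34, and was at least 73.2-fold higher after 1 h (adjusted p = 3.43e-06). It has no expressed gene upstream within 100 kb, and its end lies 1099 bp from the end of Cct7, a chaperonin subunit gene on the other strand at 662 CPM under isosmotic conditions and 701 CPM after 1 h.

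Tissue-restricted genes with an established protein product were among these 12. Tat, the first enzyme of tyrosine breakdown in liver, held 0 and 0 counts in the isosmotic SFN libraries, 123 and 143 after 1 h and 24 and 22 after 6 h, at least a 49.9-fold rise at 1 h (adjusted p = 7.27e-06). Neurog2, a transcription factor that commits progenitors to the neuronal fate, held 6 and 2, then 137 and 165, then 124 and 82, a 38.9-fold rise (adjusted p = 6.88e-05), which was 23.9-fold without WT SFN isosmotic replicate 2 and at least 69.2-fold without replicate 1. Krt78, a keratin of stratified epithelium 42411 bp past Krt8, held 0 and 2, then 96 and 153, then 42 and 31, at least a 46.5-fold rise (adjusted p = 2.21e-05). Grk1, the kinase that shuts off rhodopsin, rose 33.0-fold (21.3-fold without WT SFN isosmotic replicate 1), and Myh3, the embryonic myosin heavy chain, at least 46.4-fold. Vmn2r83, a pheromone receptor gene of a large family whose copies can share reads, held 0 and 0, then 128 and 117, then 27 and 24. In none of these 6 genes did an isosmotic SFN library reach the lowest 1 h library. Per kilobase of exon, the levels after 1 h with SFN were 2.97 CPM for Gm38100, 1.73 for Neurog2 and 1.41 for Tat, so that the first of these was also the densest.

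The rule could take almost none of the genes known to respond to hypertonicity or to stress signals. Of 18 NFAT5 targets, 3 met the isosmotic part of the rule, and all 3 carry symbols that it leaves out. Of 25 immediate-early genes, 0 met the isosmotic part, so the absence of both lists follows from the rule. Of 25 cytokines and chemokines, 5 met it (Il1b, Il6, Ccl3, Ccl4 and Ereg), and 1 was a member, the interleukin gene Il6. Il6 held 0 and 0 counts under isosmotic SFN conditions, 61 and 50 after 1 h and 10 and 0 after 6 h, at least 20.9-fold higher after 1 h (adjusted p = 0.00656) and 9.67-fold lower after 6 h than after 1 h (adjusted p = 0.0207). Both calls rested on single libraries. The rise was not called without WT SFN isosmotic replicate 2 (adjusted p = 0.0698), nor the fall without WT SFN 1 h replicate 1 (adjusted p = 0.0764) or WT SFN 6 h replicate 2 (4.84-fold, adjusted p = 0.1), and without WT SFN 6 h replicate 1 the fall was at least 15.2-fold. In Nrf2-/- cells the counts were 0 and 0, then 16 and 76, with the 1 h libraries far apart. Beside these genes, Akr1b3, the aldose reductase gene and an NFAT5 target, stood at 301.6 CPM in isosmotic SFN libraries, 428.7 after 1 h and 5210 after 6 h. The predicted gene Gm14546, a member chosen for mention after its values were seen, overlaps Akr1b3 on the other strand and held 0 and 0, 46 and 93, and 261 and 278 counts at these times.

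Members lay closer to expressed genes than silent genes at large, which is given as a description with no test. The sets were not matched for gene type or length. Of members 73.8% were protein coding, against 22.4% of other silent genes, and the median exon length was 3005 bp against 698 bp. Positions were found by symbol for 271 members and 33920 silent genes, and an expressed gene was one of at least 1 CPM in the WT DMSO isosmotic libraries. Of the members, 57 (21%) began within 10 kb past the end of an expressed gene on the same strand without overlapping one, against 2.61% of all silent genes. A further 134 (49.4%) began 10 to 100 kb past such an end, against 15.9% of silent genes, and 73 (26.9%) had none within 100 kb, against 74.0%. The remaining 7 overlapped an expressed gene on the same strand. The median distance was 30200 bp for members and 466200 bp for other silent genes.

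Read the other way, the share of silent genes that were members was lower beyond 20 kb than nearer. It was 7.50% of the 80 silent genes within 1 kb of such an end, 5.87% of 358 at 1 to 5 kb, 6.68% of 449 at 5 to 10 kb and 5.29% of 831 at 10 to 20 kb. Farther away it was 3.24% of 2097 at 20 to 50 kb, 0.889% of 2474 at 50 to 100 kb and 0.291% of 25089 beyond that. The rule did not use the SFN libraries, and there the same count rule was met by 7.50%, 3.07%, 3.56%, 3.13%, 1.72%, 0.606% and 0.191% of these silent genes, so that the share was level from 1 to 20 kb. In Nrf2-/- cells the shares were 5.00%, 3.07%, 2.45%, 2.41%, 1.14%, 0.323% and 0.136%. The first of these classes holds 80 genes and 4 to 6 that met the rule, so its shares are the least precise. The expressed genes before the 57 near members had a median of 60.5 CPM (quartiles 29.5 and 145), against 26.2 CPM (quartiles 7.10 and 66.9) before the 830 other silent genes in the same class.

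**Figure D2:**
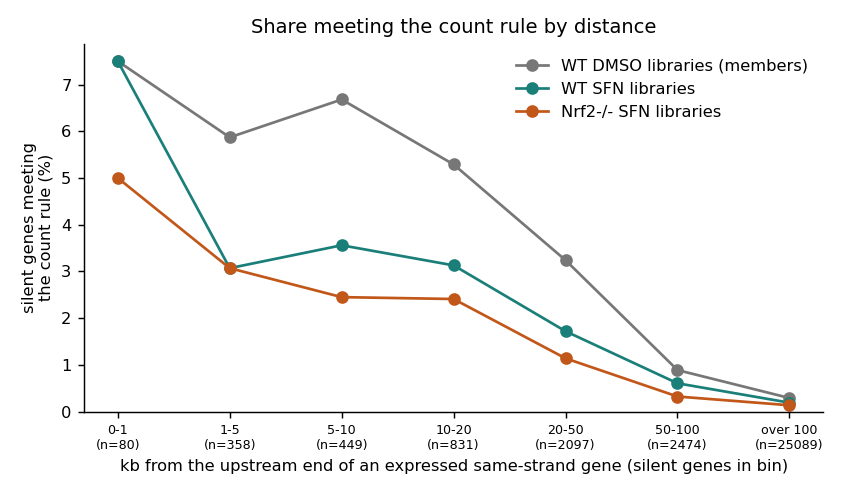
Percent of silent genes that met the count rule (vertical axis) by distance in kb from the upstream end of an expressed gene on the same strand, with the number of silent genes in each class, for WT DMSO libraries (the members), WT SFN libraries and Nrf2-/- SFN libraries. All 3 lines are highest within 1 kb, at 7.50%, 7.50% and 5.00%, and lowest over 100 kb, at 0.291%, 0.191% and 0.136%.

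The shares also differed with the direction of the neighbour, which was looked at after the first result was seen. Distances inside 10 kb, gene type and gene length were not matched between the directions. Among silent genes with 1 kind of expressed neighbour within 10 kb and no overlap, 7.24% of 580 with a gene end upstream on the same strand were members, and 6.71% of 686 with the end of a gene on the other strand facing theirs. Where the neighbour instead showed its start, the shares were 1.74% of 690 for a start downstream on the same strand and 0.306% of 653 for a divergent start. With no such neighbour, 0.479% of 25900 were members. In the SFN libraries the order of the first 4 shares was 3.62%, 4.23%, 1.30% and 0, so that the ends again stood above the starts. Of the 73 members without an upstream end in 100 kb, 71 had a facing end within 100 kb, 26 of them within 10 kb. An end that pointed at the gene within 100 kb, or an overlap, was found for all 271 members with a position, against 41.5% of silent genes.

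**Figure D3:**
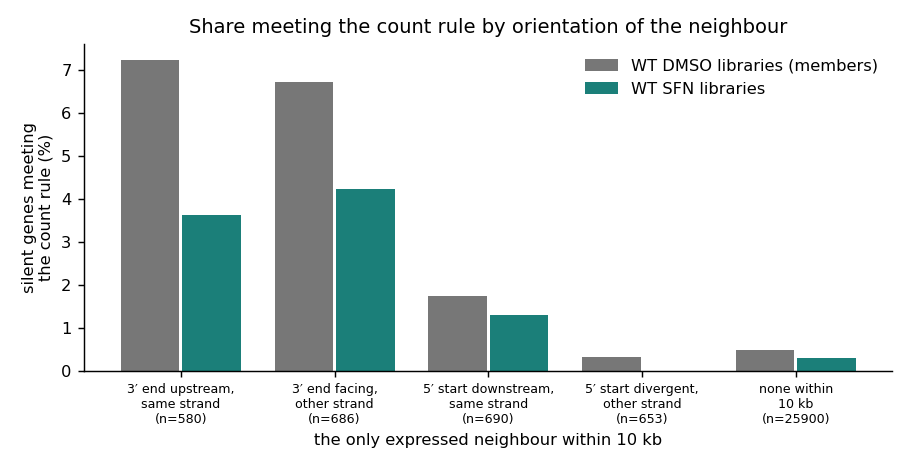
Percent of silent genes that met the count rule (vertical axis, from 0) when the only expressed neighbour within 10 kb was of the kind named under the bars, for WT DMSO libraries (grey, the members) and WT SFN libraries (green). Gene ends upstream or facing reach 7.24% and 6.71% in grey and 3.62% and 4.23% in green, and a divergent start reaches 0.306% and 0.

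Members without an upstream expressed gene were led by Fbxo41, Grip2, Vmn2r83, Pipox and Pirb, and 3 of these 5 end within 5 kb of the facing end of an expressed gene. Grip2, a scaffold protein of glutamate receptors, faces the taurine transporter gene Slc6a6. Its counts were 2 and 3 under isosmotic SFN conditions, 151 and 119 after 1 h and 75 and 55 after 6 h, while Slc6a6 stood at 272, 272 and 1050 CPM. Pirb, an inhibitory receptor of immune cells with near-identical relatives, faces the end of the ribosomal protein gene Rps9 at 4512 bp and held 0 and 0, 65 and 116, and 143 and 127. Grip2 and Pirb rose after 1 h with SFN, by at least 50.8-fold and 33.8-fold (adjusted p = 1.6e-05 and 0.000154), and their isosmotic and 1 h libraries did not overlap.

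Among the members closest to an upstream gene end were Gm48089, Ano7, Grin2c, Atp6v1fnb and Espnl, at 407 to 1000 bp, and all but Espnl of these 5 rose after 1 h with SFN. Gm48089, a long noncoding RNA, held 1 and 0 counts under isosmotic SFN conditions, 60 and 58 after 1 h and 4 and 7 after 6 h, at least 22.2-fold higher after 1 h (adjusted p = 0.00066) and 8.98-fold lower at 6 h than at 1 h (adjusted p = 0.00195). Dusp6 before it, a phosphatase of the MAP kinase ERK, stood at 58.3, 56.6 and 1070 CPM at the same times. Its level was 151.8, 59.7 and 1114 CPM with DMSO and 213.6 and 132.5 CPM in Nrf2-/- cells before and after 1 h, so that it was lower after 1 h in these series and near its isosmotic level only in WT SFN cells. Ano7, a membrane protein of the anoctamin family, held 1 and 2, then 57 and 48, then 6 and 6 counts, with Ppp1r7 before it at 73.7, 70.2 and 62.3 CPM. In WT SFN cells the level of the expressed gene after 1 h was close to its isosmotic level in both pairs.

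A pair of members past stress genes, chosen after their values were seen, behaved alike in Nrf2-/- cells. Gm8696, 1724 bp past the heat shock gene Hspa1b, held 0 and 2 counts under isosmotic SFN conditions, 41 and 49 after 1 h and 4 and 4 after 6 h in WT cells, and 0 and 1, then 76 and 113 in Nrf2-/- cells. Hspa1b itself stood at 240.8, 425.1 and 2739 CPM in WT SFN cells and at 261.5 and 317.6 CPM in Nrf2-/- cells. Gm26802, 1926 bp past the immediate-early gene Fosb, held 0 and 0, 6 and 23, and 1 and 2 in WT SFN cells and 0 and 2, then 45 and 65 in Nrf2-/- cells. In WT SFN cells at 6 h, when both upstream genes were at their highest, both members were at 4 counts or fewer. Neither member was called for the difference of the 1 h effect between the genotypes, a test with little power at so few isosmotic reads.

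The members also differed from other silent genes in kind. Of the 271 with a position, 200 were annotated as protein coding (73.8%, against 22.4% of other silent genes) and 20 as pseudogenes (7.38% against 31.6%). The median exon length was 3005 bp against 698 bp and the median number of exon blocks 6 against 1. A longer gene collects more reads at the same level, so the share of long genes goes with a rule set in raw counts. The part of gene type and length in the list, or in its distances to expressed genes, was not tested. The members lay on every autosome and on X, with 26 on chromosome 2 and 23 on chromosome 11.

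The share of member promoters that held each of 6 motifs lay within a few percentage points of the share of all promoters. RefSeq windows on GRCm38.p6, from 250 bases before to 50 after a gene start, were found for 174 members (205 windows). TonE, the element NFAT5 binds, was in 6.83% of these and in 4.96% of all 32851 windows of the table. For AP-1 (TGANTCA) the shares were 7.32% and 7.81%, for the cAMP response element (TGACGTCA) 0.976% and 1.79%, for CCAAT 34.1% and 37.4%, for the antioxidant response element that Nrf2 binds (TGACNNNGC) 11.2% and 12.4% and for TATAAA 9.76% and 13.6%. Both strands were searched, and a match is no evidence of binding. The windows with TonE before the start that belonged to the members with the highest level after 1 h with SFN are shown with the motif in capitals, since NFAT5 is the factor tied to this stress.
Fam78a (chr2:32064243-32064293, minus strand): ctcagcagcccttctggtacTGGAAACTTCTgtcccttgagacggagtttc
Sytl3 (chr17:6658889-6658939, plus strand): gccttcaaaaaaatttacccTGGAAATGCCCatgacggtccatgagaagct
Ccr6 (chr17:8242319-8242369, plus strand): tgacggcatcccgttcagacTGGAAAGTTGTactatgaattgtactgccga
Their isosmotic, 1 h and 6 h counts with SFN were 4 and 0, 58 and 71, and 13 and 12 for Fam78a, 0 and 0, 40 and 67, and 6 and 2 for Sytl3, a vesicle trafficking protein, and 0 and 0, 39 and 44, and 0 and 8 for the chemokine receptor gene Ccr6. All 3 were called lower at 6 h than at 1 h, although the calls of Fam78a and Ccr6 were lost when 1 library was left out (adjusted p up to 0.0975 and 0.0771). Of the 11 members with TonE before the start, 5 were called lower at 6 h and 0 higher. Of all members 24.5% were called lower and 11.2% higher, and of all genes tested 21.7% and 20.9%. The difference between members with and without TonE was not tested.

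In Nrf2-/- SFN cells, 212 of the 278 members rose after 1 h (76.3%, against 4.36% of genes tested that were called higher) and 0 fell (against 2.81%). Both 1 h libraries lay above both isosmotic libraries for 263 members, a count for which the share over all genes tested is not given here. Tat held 0 and 0 counts, then 76 and 86, Fbxo41 0 and 0, then 154 and 140, and Gm38100 0 and 4, then 174 and 134. These were rises of at least 27.9-fold (adjusted p = 2.66e-05), at least 50.6-fold (adjusted p = 9.72e-06) and at least 53.0-fold (adjusted p = 9.92e-05). The number of calls was 119 without Nrf2-/- isosmotic replicate 1, 107 without replicate 2 and 37 when only the 4 libraries compared were fitted.

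The same count rule applied to other libraries found an overlapping list. In WT SFN cells 223 genes met it, of which 134 were members (60.1% of that list and 48.2% of the members). In Nrf2-/- cells 176 genes met it, of which 85 were members (48.3% and 30.6%), and 56 genes, 20.1% of the members, met it in all 3. Isosmotic Nrf2-/- libraries were not silent for every member. Lypd3, a surface protein of squamous epithelium chosen after its values were seen, held 115 and 132 counts there and 142 and 94 after 1 h, against 15 and 17, then 17 and 57 with SFN in WT cells. Acan, the aggrecan core protein of cartilage, held 14 and 35, then 39 and 33 in Nrf2-/- cells and 2 and 0, then 27 and 21 in WT SFN cells.

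The difference of the 1 h effect between the genotypes was called for 0 of the 278 members (0.123% of genes tested were called in either direction). It could not be estimated for members at 0 in every isosmotic SFN library of both genotypes, such as Tat (SE 746) and Fbxo41 (SE 378). In isosmotic SFN libraries, 138 members were at 0 in both WT libraries and 155 in both Nrf2-/- libraries. The lack of calls therefore does not show that the genotypes were alike. By unadjusted p under 0.05 there were 26 members, 9.35% against 7.35% of genes tested, which is near the background, and DESeq2 called 1. The member that DESeq2 called was Susd3, a sushi domain membrane protein, which came closest in edgeR (adjusted p = 0.0643). Susd3 held 6 and 8, then 96 and 90 counts in WT SFN cells and 7 and 4, then 10 and 3 in Nrf2-/- cells, so that both Nrf2-/- 1 h libraries lay far below both WT ones. The rise was 15.4-fold in WT SFN cells (adjusted p = 9.81e-06), and in Nrf2-/- cells the ratio was 1.21 (adjusted p = 0.856). Over the alternatives the adjusted p of its genotype difference ranged from 0.000663 to 0.803. Fgd3, 12848 bp upstream of Susd3, stood at 312 and 401 CPM in WT SFN cells before and after 1 h and at 47.8 and 55.8 CPM in Nrf2-/- cells. Without Nrf2-/- 1 h replicate 1 there were 5 calls, of which Susd3, Acan, Tcfl5 and Adam30 had the smaller effect and Gm41556 the larger effect in Nrf2-/- cells, and without replicate 2 there was 1, Susd3. Next in the other direction were Gm41556 (5 and 6, then 88 and 93 in WT SFN cells and 0 and 0, then 81 and 139 in Nrf2-/- cells) and Gm47687 (2 and 8, then 37 and 18, and 0 and 0, then 22 and 18), for which the difference lies in the isosmotic counts.

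**Figure D4:**
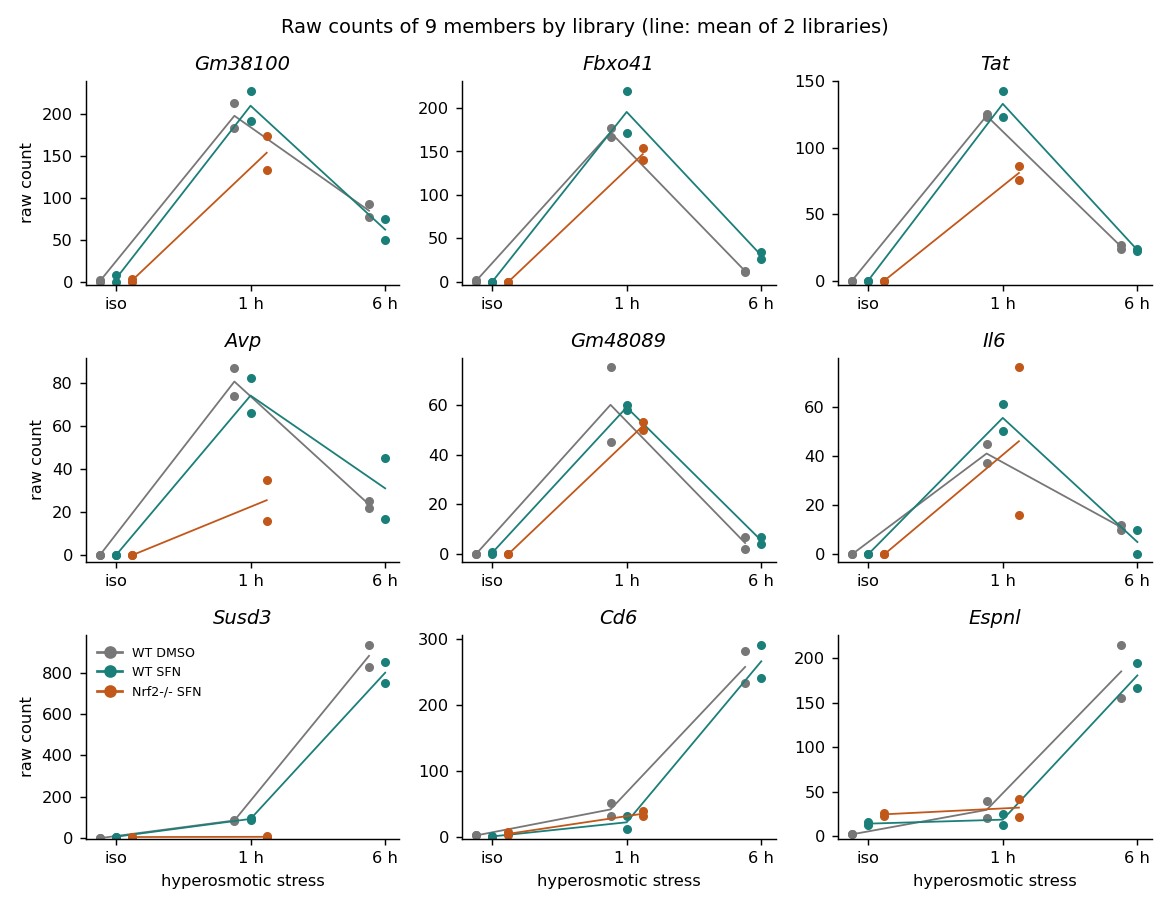
Raw count (vertical axis) of 9 members in each library before stress (iso) and at 1 h and 6 h of it, with points for libraries and lines through the mean of 2 libraries, for WT DMSO (grey), WT SFN (green) and Nrf2-/- SFN (orange). The first 6 genes peak at 1 h, Susd3, Cd6 and Espnl are highest at 6 h, and Susd3 stays at 10 counts or fewer in Nrf2-/- cells.

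At 6 h the list split. In WT SFN cells 68 members were called lower at 6 h than at 1 h and 31 higher, 24.5% and 11.2%, against 21.7% and 20.9% of all genes tested. The share that fell was thus close to the background and the share that rose was below it, and without any 1 of the 4 libraries compared the calls were 60 to 64. The genes tested were not matched to the members in level. The median member held 30 counts in each WT SFN 1 h library, and so few counts limit calls in either direction. The members that fell had a median of 1.15 CPM at 1 h and 0.137 CPM at 6 h with SFN, and 1.08 and 0.142 CPM with DMSO. The members that rose had 0.692 and 3.25 CPM with SFN and 0.880 and 3.17 CPM with DMSO. The DMSO medians are a description, since the DMSO 1 h libraries chose the members. Among members within 10 kb past an expressed gene end 14 of 57 fell and 3 rose, at 10 to 100 kb 24 of 134 fell and 20 rose, and with no such end within 100 kb 29 of 73 fell and 7 rose.

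Some members fell to or near 0 and others less far. Those named here are examples, not the deepest falls by rank. Gldc, the glycine decarboxylase of liver and brain, held 60 and 67 counts at 1 h and 2 and 2 at 6 h with SFN, at least 17.8-fold lower (adjusted p = 0.000146). With DMSO its counts were 69 and 70, then 0 and 2. Apoa1 held 75 and 41, then 1 and 6, and was 13.8-fold lower (adjusted p = 0.00443), or 7.97-fold without WT SFN 6 h replicate 1. Oc90, an otoconin of the inner ear chosen like these after its values were seen, went from 56 and 68 to 0 and 0. Fbxo41 and Tat fell 5.38-fold and 4.88-fold (log2 fold changes -2.43, SE 0.35, and -2.28, SE 0.34, adjusted p = 0.000104 and 0.000207). For these 5 genes both WT SFN libraries of 6 h lay far below both of 1 h.

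The 3 members with the highest level at 6 h were all called higher there than at 1 h. Susd3 held 851 and 748 counts at 6 h with SFN and 934 and 828 with DMSO, 10.2-fold above 1 h with SFN (log2 fold change 3.34, SE 0.23, adjusted p = 8.64e-08), while Fgd3 before it stood at 892 CPM, up from 401. Cd6, a T cell surface receptor, held 32 and 12 counts at 1 h and 291 and 241 at 6 h with SFN, a 14.1-fold rise (adjusted p = 5.19e-06) that was 26.8-fold without WT SFN 1 h replicate 1, and the Riken gene 2410004P03Rik held 35 and 36, then 292 and 343, a 10.6-fold rise (adjusted p = 0.000186). Espnl, not called at 1 h, held 25 and 12, then 195 and 166, an 11.4-fold rise (adjusted p = 7.82e-06) that was 18.2-fold without WT SFN 1 h replicate 1, while Scly before it stood at 19.6 and 11.4 CPM. Tbx21, a T cell transcription factor chosen for mention after its values were seen, held 53 and 39, then 150 and 183. Markers of immune cells were also higher in these libraries. The 10 fixed markers summed to 9.10 and 9.22 CPM in the WT SFN 1 h libraries and 29.5 and 27.9 CPM in those of 6 h, with Csf1r the most abundant over all libraries at 1.31 to 8.40 CPM. Between these times Cd79a, a B cell receptor subunit, went from 20 and 17 counts to 331 and 316, and Ptprc, which encodes CD45, from 2 and 2 to 180 and 146. Csf1r went from 153 and 149 to 286 and 230, while the macrophage marker Cd68 held 168 and 189, then 115 and 116. Cd3e, which defines T cells, was at 0 counts in all libraries but 1, where it held 2, and Nkg7 held at most 2. A change in the number of cells of a type and a change in RNA per cell cannot be told apart in bulk libraries, and the part of such cells in the 6 h values was not tested.

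**Figure D5:**
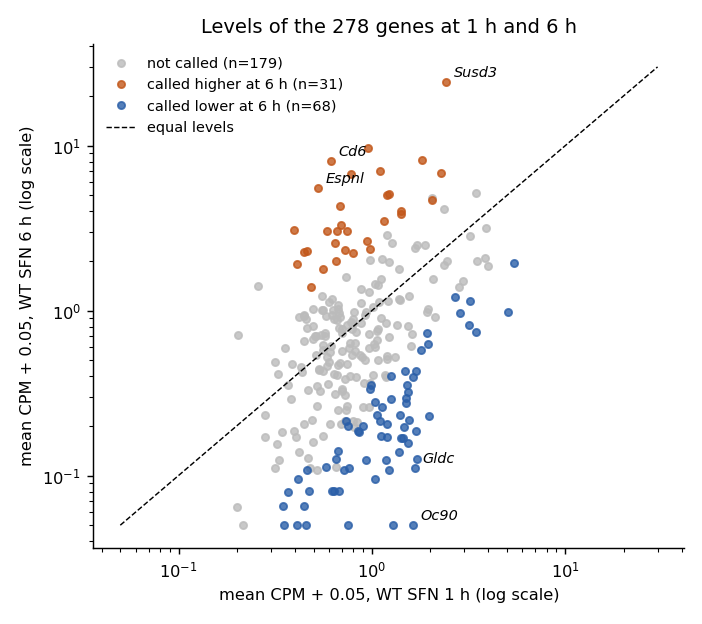
Mean CPM plus 0.05 of the 278 genes in the WT SFN libraries of 1 h (horizontal) and 6 h (vertical), both on log scales, with the dashed line at equal levels. The 68 members called lower at 6 h lie below the line, the 31 called higher lie above it, and 179 were not called.

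Pretreatment made no called difference at 6 h. SFN against DMSO in the WT 6 h libraries was called for 0 members (0.041% of genes tested) by edgeR and for 0 by DESeq2, and 17 members had an unadjusted p under 0.05, 6.12% against 3.68% of genes tested. Sums over the members at 6 h were 272.4 and 279.6 CPM of the raw total with SFN and 289.1 and 253.6 with DMSO, so the pairs overlapped. A miss of the threshold with 2 libraries a group does not show that the levels were equal.

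The edge of the rule was not a gap in the counts. At the lower limit, 19 members held exactly 20 counts in the lower of their DMSO 1 h libraries, such as Wfdc5 with 20 and 22, and 26 genes that met the isosmotic part held 19 there, such as Gm13398 with 19 and 20.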

How the data were processed

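RNA was sequenced in 16 libraries of mIMCD3 cells (the labels' extraction text names primary cells, all other labels the line). The deposited values are raw read counts per gene symbol, which the authors made with featureCounts from reads aligned to mm10. The study's methods name Hisat2 and the submitters' processing notes name Bowtie2, with SAMtools for sorting. Versions, annotation and strand setting are not given in the sources used here, so reads of overlapping genes on opposite strands, and of near-identical copies, cannot be told apart. Between 58.0% and 68.5% of counts from 1 to 10 were even in a library, so a fragment may count more than once, and floors and bounds cover counting error only. Lines with no gene name (2 and 3 in 2 libraries) were left out.

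Counts were normalized by TMM and fitted with edgeR 4.0.16 (robust quasi-likelihood F-test, R 4.3.3) over all 16 libraries, with 1 coefficient for each of the 8 groups, on the 19509 genes that passed filterByExpr, and p-values were Benjamini-Hochberg adjusted over these genes with a threshold of 0.05. Fold changes in the text are ratios of mean CPM. A group with 3 or fewer counts in both libraries, or a mean level under that of 3 counts, was set at the floor of 3 counts per library, and the ratio is then a bound. No test compares the libraries that chose the genes, although they enter the estimate of spread. The script was tested on simulated counts. Alternatives were DESeq2 1.42.0, RLE size factors, other filters, sets of libraries and thresholds, the replicate number as a block, and leaving out each library.

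Positions came from GENCODE M21 (GRCm38) by symbol, and 53186 of 55367 symbols matched. Distance classes were set at 10 kb and 100 kb. Gm41556, Ecrg4, Gm5246, Cdcp3, Gm50102, Iqca1l and Gm7912 had no position. Named genes were the 12 members highest in WT SFN 1 h, the 6 highest without an upstream expressed gene, the 6 nearest to one, the 2 with the lowest p in each direction of the genotype difference, the 3 highest at 6 h, members of the fixed lists, genes at the threshold, and neighbours; all others were chosen after their values were seen. A few genes that the rule names are not reported here. The members, lists and rule were chosen with earlier results of these data known. Tables were made in Python 3.11.15 with pandas 2.3.3.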

Additional observations from a re-analysis of the deposited data

How the results depend on the processing

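No named gene reversed its direction in a called comparison. Of the single-gene values recomputed, 649 kept their side of the threshold and 32 did not. Members called higher after 1 h in WT SFN cells numbered 153 to 199 when 1 library was left out, and in Nrf2-/- cells 107 to 225. With only the 4 libraries compared, 37 were called in Nrf2-/- cells, a fit of fewer samples. The genotype difference gave 1 call with no filter on low counts, 1 with DESeq2 and 0 to 5 when 1 library was left out. Members called between 6 h and 1 h numbered 60 to 64 without 1 library, and SFN against DMSO at 6 h gave 0 to 0. Where an arm kept 1 library, it was assumed to vary like the other groups. With the replicate number as a block, 235, 199, 0, 92 and 0 members were called in the 5 comparisons. Same-numbered libraries did not deviate together, with correlations of -0.0794 to 0.123 over 28 pairs of groups. With only the 12 WT libraries, an alternative added after the data were seen, 264 members were called after 1 h and 122 between 6 h and 1 h.

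The list itself held 525 genes with limits of 5 and 15 counts and 39 with limits of 1 and 50, and 354 to 468 when 1 DMSO library was left out, most without WT DMSO 1 h replicate 2. Counts scaled to the mean library total gave 278 genes, of which 264 were shared. Members past an upstream end numbered 27 within 5 kb and 101 within 20 kb, against 57 within 10 kb. The median member held 30 counts in each WT SFN 1 h library, which limits the precision of each ratio.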

Other observations

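A pair of members held few or no reads in Nrf2-/- cells and was chosen for mention after the values were seen. AI463229 held 0 counts in all 4 Nrf2-/- libraries, and 0 and 0, then 21 and 29, then 169 and 113 counts in the WT SFN series. Elfn2, a synaptic adhesion protein, held 0 and 0 counts in the Nrf2-/- 1 h libraries and 0 and 2 under isosmotic conditions, against 16 and 26 at 1 h and 86 and 112 at 6 h in WT SFN cells. Neither was called for the genotype difference, which could not be estimated for AI463229, at 0 in every isosmotic SFN library. A count of 0 allows up to 3 counts per library.

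The 6 neuronal markers summed to 0.104 to 0.593 CPM in WT libraries and 15.4 to 18.2 CPM in the Nrf2-/- libraries, where Gap43 held 504 to 584 counts and Stmn2 39 to 58, while Snap25, Rbfox3 and Nefl were at 0. Endothelial markers, led by Pecam1, summed to at most 0.742 CPM in WT libraries before 6 h and 5.34 to 6.60 CPM at 6 h. Germ cell, muscle and red cell lists stayed at or below 1.32 CPM in every library, and fibroblast markers between 1.38 and 7.50 CPM.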
